A study of Mus musculus with 12 samples.

Results

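In colon epithelial cells of mice with induced Dnmt3b, 534 genes had a mean promoter methylation that was low in every control mouse and intermediate in every induced mouse. They were chosen from the short-fragment libraries by a fixed rule on the mean CpG methylation of the gene's promoters: under 10% in each of 3 control mice, and at least 10% but under 50% in each of 3 induced mice. They made up 5.33% of the 10027 genes that all 6 short-fragment libraries held and 6.07% of the 8805 genes that were under 10% in every control mouse. Of those 8805 genes, 856 (9.72%) were at or above 50% in all 3 induced mice and 6588 (74.8%) stayed under 10% in all 3. The other genes had induced mice on both sides of a bound, 402 of them at the 10% bound and 425 at the 50% bound. Because short-fragment values chose the 534 genes, those values are given as a description, without a test.

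The induced group was 3 C57BL/6 mice kept for 3 months on doxycycline (0.5 g/l in the water, made up afresh every 3 days), the drug that switches on Dnmt3b. The control group was 3 C57BL/6 mice on regular water, and both groups ate chow. DNA of epithelial cells isolated from the colon was cut with MspI, which cuts at CCGG whether or not the inner CpG is methylated, and each mouse gave a library of short (40 to 120 nt) and one of long (120 to 220 nt) fragments for bisulfite sequencing, 12 libraries in all. The labels give neither the construct that made Dnmt3b inducible nor whether control mice carried it, and no age or sex. Only induced mice received doxycycline, so the drug and the induction cannot be told apart. The values are mean methylated fractions, shown here in percent, and the number of reads behind each is unknown. Between 10358 and 10838 genes had a value in a short-fragment library and between 7278 and 8108 in a long-fragment one.

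The labelled epithelium was checked by promoter methylation. Of 18 epithelial markers 9 were measured in short fragments, with list means of 6.43% to 9.69% in induced mice and 0.550% to 2.73% in control mice. The 8 of them under 10% in every control mouse all stayed under 10% in every induced mouse. The remaining marker was not under 10% in every control mouse and had a control mean of 13.7%. The median over the 9 markers in induced mice was 0.217%, far under the list means. Of 15 stromal, muscle and endothelial markers 6 were measured, at 50.5% to 63.3% in induced mice and 7.44% to 8.66% in control mice, and none of 15 immune markers was measured in short fragments. In long fragments list means were 3.42% to 4.51% in induced and 2.55% to 3.21% in control mice for 9 epithelial markers. For 3 stromal markers they were 35.8% to 71.95% and 1.10% to 2.25%. The 1 immune marker measured there, Coro1a, had 68.9% to 82.3% in induced and 8.05% to 17.9% in control mice. Methylation at these promoters does not measure how many cells of each kind a sample held. The part of other cells in the levels below was not tested.

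Dnmt3b is a de novo DNA methyltransferase: it adds methyl groups to CpG sites that carry none on either strand, whereas Dnmt1 copies existing methylation to the new strand at replication. Promoters rich in CpG, the CpG islands, are normally kept free of methylation in healthy tissue, also where the gene is silent. In colorectal cancer a subset of them becomes methylated, among them many genes that Polycomb complexes keep silent in embryonic stem cells, such as homeobox genes. A promoter mean between the bounds can come from some fully methylated molecules or from many methylated at a few sites, and a mean per gene does not separate these.

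Promoter stretches of 5 genes are shown because they stand for the outcomes described below: a member with almost the same level in the 3 induced mice (Zic5), a member far higher in long than in short fragments (Alkbh2), a member with no methylation in long fragments (Mycn), and for comparison a gene at or above 50% in every induced mouse (Cacng2) and a gene that stayed under 10% (Mrpl14). Each is the 250 bases before the RefSeq gene start in GRCm38.p6, 5′ to 3′ on the gene's strand, with every CpG in capitals. Zic5 lies at chr14:122465659-122465908 on the minus strand, Alkbh2 at chr5:114128219-114128468 on the minus strand, Mycn at chr12:12941837-12942086 on the minus strand, Cacng2 at chr15:78119281-78119530 on the minus strand and Mrpl14 at chr17:45686099-45686348 on the plus strand. The window and build that the authors averaged over are not given in the labels or files, so the CpGs measured need not be those printed.
Zic5: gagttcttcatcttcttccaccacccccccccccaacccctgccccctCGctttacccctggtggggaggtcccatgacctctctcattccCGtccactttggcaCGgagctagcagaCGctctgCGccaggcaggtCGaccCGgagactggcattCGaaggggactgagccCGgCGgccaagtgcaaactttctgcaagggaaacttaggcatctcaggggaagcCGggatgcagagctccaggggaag
Alkbh2: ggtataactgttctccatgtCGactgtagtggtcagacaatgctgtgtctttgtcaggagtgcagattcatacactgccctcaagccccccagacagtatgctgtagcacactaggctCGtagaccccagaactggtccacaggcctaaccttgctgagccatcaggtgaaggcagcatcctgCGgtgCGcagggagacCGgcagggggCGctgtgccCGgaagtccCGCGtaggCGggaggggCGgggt
Mycn: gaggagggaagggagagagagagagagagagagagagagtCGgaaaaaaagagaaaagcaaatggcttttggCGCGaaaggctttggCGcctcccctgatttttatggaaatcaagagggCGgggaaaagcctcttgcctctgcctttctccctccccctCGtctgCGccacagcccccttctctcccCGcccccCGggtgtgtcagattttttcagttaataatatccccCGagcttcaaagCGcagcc
Cacng2: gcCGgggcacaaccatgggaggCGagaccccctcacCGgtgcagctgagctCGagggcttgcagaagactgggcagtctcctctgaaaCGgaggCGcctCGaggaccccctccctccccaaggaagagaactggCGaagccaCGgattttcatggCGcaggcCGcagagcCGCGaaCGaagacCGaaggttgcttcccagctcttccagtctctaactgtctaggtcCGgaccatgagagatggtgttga
Mrpl14: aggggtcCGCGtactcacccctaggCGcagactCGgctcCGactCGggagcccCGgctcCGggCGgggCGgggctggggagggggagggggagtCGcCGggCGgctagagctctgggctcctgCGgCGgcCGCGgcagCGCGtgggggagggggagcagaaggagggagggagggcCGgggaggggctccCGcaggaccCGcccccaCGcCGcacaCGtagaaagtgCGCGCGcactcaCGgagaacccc

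These stretches held 11 CpGs in each of the 3 members, 16 in Cacng2 and 29 in Mrpl14. G and C made up 54.8% of the bases in Mycn, 62.0% in Cacng2, 62.4% in Zic5 and 77.2% in Mrpl14. Cacng2 and Mrpl14 were picked as nearest to the median ratio of observed to expected CpGs in their groups. The 3 members were picked by methylation level, so the counts do not compare the groups. Cacng2, which encodes a subunit that escorts AMPA receptors, was at 57.1%, 65.7% and 69.0% in induced mice and at 1.06%, 5.29% and 6.45% in control mice (short fragments). Mrpl14, a protein of the mitochondrial ribosome, was at 0.76%, 2.68% and 2.70% in induced mice and at 2.13%, 0.14% and 0.01% in control mice (short fragments). In long fragments Mrpl14 had 8.07%, 6.16% and 8.85% in induced mice and 3.20%, 2.30% and 3.23% in control mice. That was a small rise of 4.78 points, which passed the test used below (limma adjusted p = 0.0175).

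Most members sat in the lower part of the window. The mean of the 3 induced mice had a median of 25.7% over the 534 genes, with quartiles of 19.2% and 34.1%. It lay between 10% and 20% in 149 genes (27.9%), between 20% and 30% in 193 (36.1%), between 30% and 40% in 141 (26.4%) and between 40% and 50% in 51 (9.55%). The members' mean level was 26.5%, 26.5% and 27.2% in induced mice 1, 2 and 3, and 1.40%, 1.63% and 1.45% in control mice 1, 2 and 3, that is 26.7% ± 0.437 in induced and 1.49% ± 0.119 in control mice (SD, n = 3 each), a closeness that the bounds of the rule help to set. In control mice the median over members was 0.67%, and 216 members (40.5%) were under 1% in all 3 control mice. That share was 12.5% among genes at or above 50% in every induced mouse and 88.2% among genes that stayed low.

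**Figure D1:**
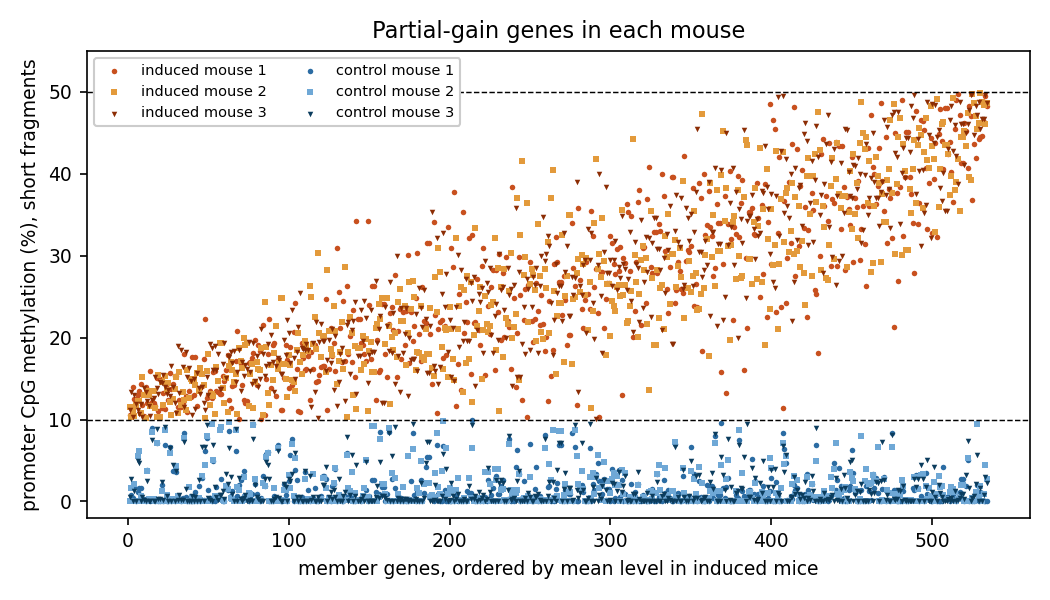
Promoter methylation of the 534 members in short fragments (percent, vertical axis), ordered by their mean in induced mice (horizontal axis), with 1 point per mouse: induced mice in orange to brown, control mice in blue. The dashed lines mark the 10% and 50% bounds of the rule, so every induced point lies between them and every control point below the lower one. The scatter between induced mice at a given gene is what the plot adds.

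At a single gene the 3 induced mice often differed. The gap between the highest and the lowest induced mouse had a median of 8.68 percentage points (quartiles 4.69 and 14.1), and the SD over the 3 mice a median of 4.58 points. The gap was under 5 points in 148 members (27.7%), under 10 points in 301 (56.4%) and above 20 points in 51. Each mouse was the highest for many genes, mouse 1 for 178, mouse 2 for 157 and mouse 3 for 199, and mouse 1, 2 and 3 were the lowest for 202, 199 and 133.

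The closest agreement was at Zic5 (Gene ID 65100), a zinc finger transcription factor of neural development, with 16.95%, 16.95% and 17.24% in induced mice and 0.14%, 0.04% and 0.46% in control mice. Eif5a2 (208691), a translation factor, followed with 48.25%, 48.57% and 48.59% in induced mice and 0.10%, 2.74% and 2.25% in control mice. Pou4f1 (18996), a POU-domain factor of sensory neurons, was at 42.4%, 42.5% and 43.0% in induced mice and at 0.53%, 0.31% and 0.32% in control mice. These 3 genes show that the mice could agree to within 1 point both low and high in the window. Prkg2, a cGMP-dependent kinase, had 12.5%, 11.8% and 11.9% in induced mice, and Bai2, an adhesion G protein-coupled receptor, had 39.6%, 40.3% and 39.5%. Their control mice were at 0.09% or less for Prkg2 and at 0.19% to 0.23% for Bai2.

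The widest spread was at Kank3 (80880), with 11.4%, 42.7% and 49.5% in induced mice and 8.33%, 7.14% and 6.73% in control mice. Epha3 (13837), an ephrin receptor, had 13.3%, 38.2% and 44.98% in induced mice and 1.79%, 2.69% and 0.09% in control mice. Gabbr1 (54393), a subunit of the GABA-B receptor, had 28.3%, 41.7% and 10.1% in induced mice and 3.41%, 2.97% and 2.84% in control mice. Rasgrf2, an exchange factor for Ras, had 10.3%, 30.2% and 40.0% in induced mice, and the cytochrome P450 gene Cyp4f39 had 18.1%, 47.5% and 42.1%. Mouse 1 was the lowest induced mouse at 4 of these 5 genes and mouse 3 at Gabbr1.

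Genes just inside and just outside the bounds were close to each other. Just inside the lower bound were Cxxc4 and Tcp11l1, each with a lowest induced mouse at 10.06%, and Gabbr1 at 10.07%; just outside were E2f4 at 9.99%, 0610009D07Rik at 9.92% and Mtap9 at 9.89%. Just inside the upper bound were Hcn4 and Ebf3, each with a highest induced mouse at 49.78%, and Cacna2d1 at 49.79%, and just outside were Col18a1 at 50.07%, Sept3 at 50.18% and Notum at 50.25%. Membership near a bound so rests on differences far smaller than the spread between mice.

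The gene value averages the promoters listed for a gene, and 462 members (86.5%) had 1 listed promoter. Of the 72 with more, 24 had promoters that differed in level, by a median of 38.5 points between the lowest and the highest. At 6 of these 24 genes every promoter's induced mean was itself between 10% and 50%, and at 18 some promoter lay outside that window. At 4 the partial level of the gene was an average over promoters under 10% and promoters above 50%. Every listed promoter counts in it, also those of equal value. Arhgef7 and Dlgap4 listed 3 promoters and Ece2 5, each with 2 distinct values. For Arhgef7 (54126), an exchange factor for Rac and Cdc42, one promoter was at 0%, 0.18% and 0% in induced mice and 0.08%, 0.14% and 0.03% in control mice. The highest promoter of the same gene was at 74.7%, 63.6% and 79.3% in induced mice and 0.15%, 1.29% and 1.14% in control mice. The gene value of Arhgef7, 24.2% ± 2.63 (SD, n = 3) in induced mice, therefore describes neither promoter.

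The same holds for Aldh7a1, an aldehyde dehydrogenase of lysine breakdown, for Dlgap4, a scaffold of the postsynaptic density, and for Ece2, an endothelin-converting enzyme. Their lowest and highest promoters had induced means of 1.26% and 69.5%, 0.883% and 68.6%, and 0% and 64.6%. Btbd11 had the next largest gap, with its highest promoter at 70.2% and its lowest 57.2 points below. Hoxa10, a homeobox gene of the posterior body, had a promoter at 0% in all 3 induced and all 3 control mice. Its other promoter was at 40.4%, 44.97% and 31.1% in induced mice and at 1.65%, 2.55% and 1.64% in control mice.

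**Figure D2:**
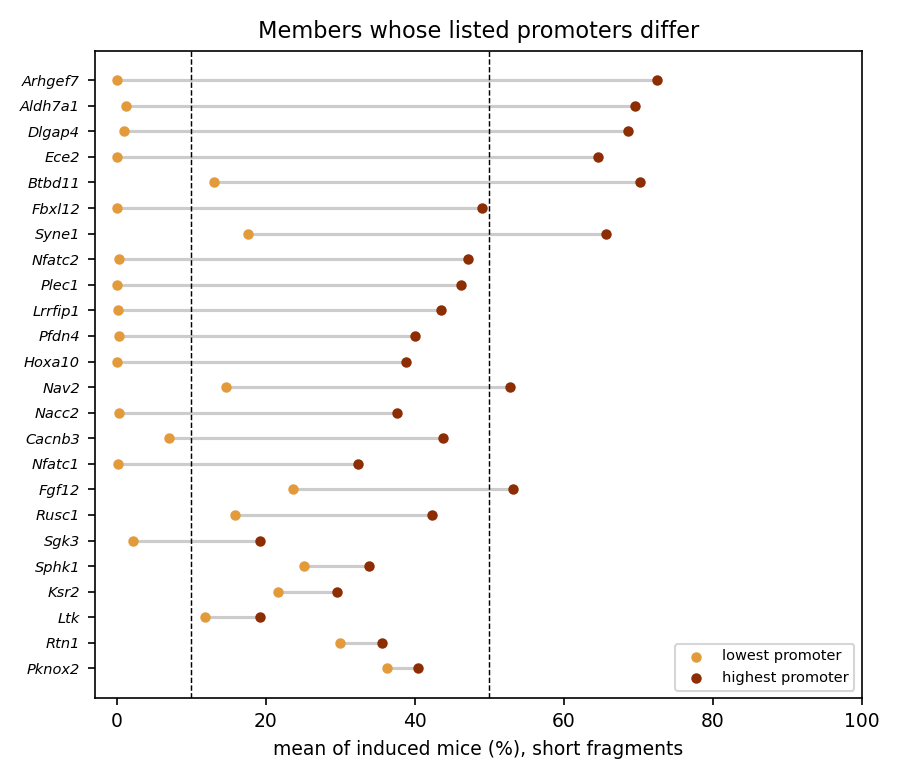
The 24 members whose listed promoters differ, 1 row per gene. Points give the mean of 3 induced mice in short fragments (percent) for the lowest promoter (light) and the highest promoter (dark) of the gene, joined by a line, and dashed lines mark 10% and 50%. In the top 4 rows the points lie on opposite sides of both bounds, and for Rusc1, Sphk1, Ksr2, Ltk, Rtn1 and Pknox2 both points lie between the bounds.

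Some members lay next to each other in the order of measured genes along the chromosomes. Of 55 adjacent pairs of members 15 had identical values in every short-fragment library, as genes that share a promoter have, such as Evc and Evc2 or the F-box genes Fbxo44 and Fbxo2. The longest run held 5 genes of the HoxA cluster and its end on chromosome 6: Hoxa9, Hoxa10, Hoxa11, Hoxa13 and Evx1, with induced means of 34.9%, 19.4%, 36.8%, 26.2% and 31.0%. Members made up 3.83% (chromosome 8) to 8.38% (chromosome 12) of the autosomal genes under 10% in every control mouse, against 6.07% in all. In all, 32 members (5.99%) shared their values with another gene, against 1999 of all 10027 genes (19.9%), 327 of which were at 0% in every short-fragment library.

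The long-fragment libraries were not used by the rule, although they come from the same 6 mice. They cover other MspI fragments of the same genes' promoters, so a level there is a second sampling of the gene and not of the animal. For genes with more than 1 listed promoter, whether both fragment classes covered the same promoters was not compared. A gap or match between the classes at such genes may reflect a different mix of promoters. All 6 long-fragment libraries held 311 of the 534 members (58.2%), against 53.0% of all genes in the short-fragment set, and 118 members were in none. Over the 311 members the mean level ran from 28.2% in induced mouse 2 to 33.9% in induced mouse 3, and from 3.82% to 4.11% in control mice. That is 30.7% ± 2.91 in induced and 3.93% ± 0.164 in control mice (SD, n = 3 each), and the groups did not overlap. The difference between induced and control means had a median of 24.7 points over the 311 members (quartiles 14.4 and 38.8), against 0.943 points over all 6127 genes in the 6 long-fragment libraries.

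In long fragments 170 of the 311 members (54.7%) were higher in induced mice and none was lower (limma over all 6127 genes, Benjamini-Hochberg adjusted p under 0.05). At an unadjusted p under 0.05 235 were higher and none lower. Of all genes 23.2% were higher, and of the genes under 10% in every short-fragment control mouse 22.5%. Every induced mouse was above every control mouse in 268 members (86.2%), against 38.2% of all genes, and in no member was every induced mouse below. The 141 members that did not pass had a median difference of 13.6 points, and in 98 of them the groups did not overlap.

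The count of 170 was smaller with a control mouse left out, at 93, 96 or 90 without control mouse 1, 2 or 3, and was 184, 170 or 165 without induced mouse 1, 2 or 3. Without a control mouse the median difference over the 311 members was 24.55 to 25.02 points. With each library's median subtracted, which shifts the many genes near 0, 209 members were higher and 10 lower, and over all genes the split was 1614 higher and 2299 lower, against 1421 higher and 1 lower without that step.

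**Figure D3:**
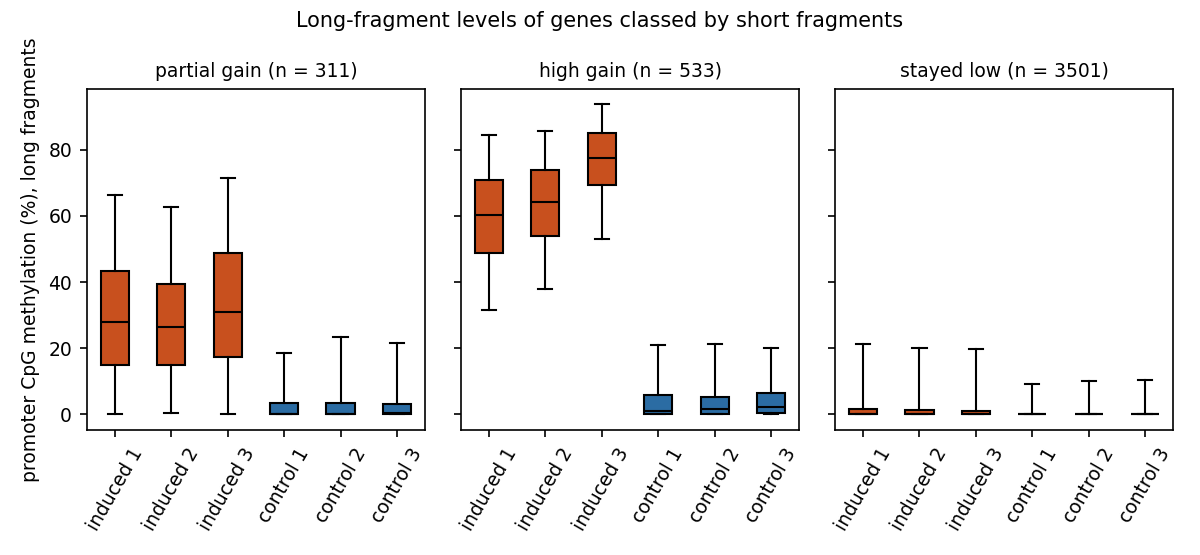
Promoter methylation in long fragments (percent) by library for genes grouped by their short-fragment values: partial gain (311 genes), at or above 50% in every induced mouse (533) and stayed under 10% (3501). Boxes span the quartiles with the median as a line and whiskers run from the 5th to the 95th percentile of genes, with induced mice in orange left of control mice in blue. The partial-gain boxes of induced mice lie between those of the other groups in every induced library.

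Partial gain in short fragments went with levels between those of the other groups in long fragments. The mean of the 533 genes at or above 50% in every induced mouse was 66.2% ± 8.79 in induced and 4.83% ± 0.153 in control mice, and 485 of them (91.0%) were higher. The mean of the 3501 genes that stayed low was 3.34% ± 0.118 in induced and 1.62% ± 0.0260 in control mice (SD, n = 3 each), and 170 of them (4.86%) were higher. The full rule, applied to the long-fragment values, was met by 111 of the 311 members (35.7%), by 12 of the 533 high genes (2.25%) and by 72 of the 3501 low genes (2.06%). Among genes with induced mice on both sides of a bound it was met by 14.2% at the 10% bound and 6.09% at the 50% bound.

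By the mean of induced mice in long fragments, 220 members (70.7%) were between 10% and 50%, 51 (16.4%) at or above 50% and 40 (12.9%) under 10%. In every induced mouse 132 were between the bounds, 23 at or above 50% and 28 under 10%. Induced means of the 2 fragment classes lay within 10 points of each other in 153 members (49.2%) and within 20 points in 250 (80.4%), with the long-fragment mean above in 185 and below in 126. Across the 311 members the Pearson correlation of these means was 0.482 and Spearman's 0.504, a description over genes of the same mice. Among the 78 members with the lowest short-fragment means (median 15.7%) the long-fragment median was 18.5% and 28 were higher, and among the 78 with the highest (median 38.2%) it was 43.3% and 61 were higher.

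**Figure D4:**
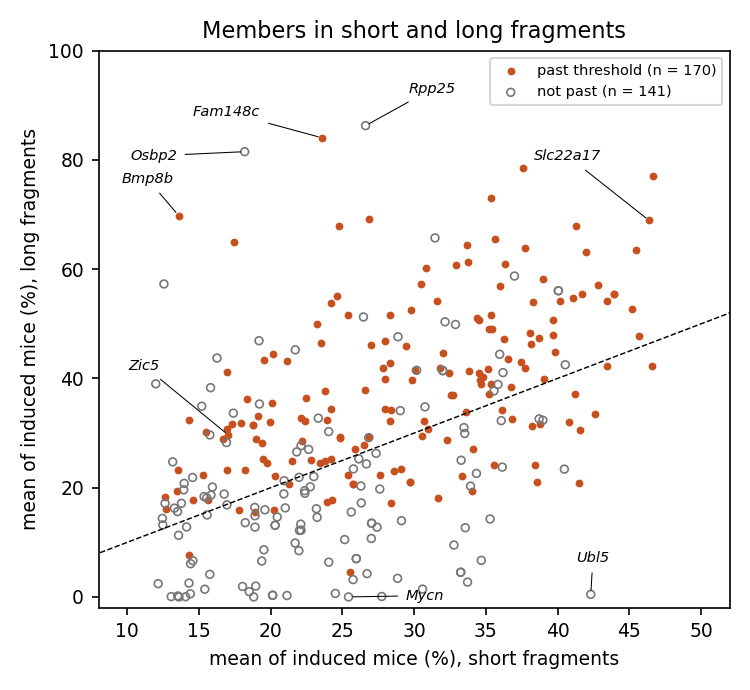
Mean of 3 induced mice in short fragments (percent, horizontal axis) against long fragments (percent, vertical axis) for the 311 members in all long-fragment libraries. Filled points passed the limma threshold as higher in induced mice in long fragments (170) and open points did not (141), and the dashed line marks equal levels. Points are spread widely about the line: Ubl5 and Mycn lie near 0% in long fragments, and Fam148c, Rpp25 and Osbp2 above 80%.

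The spread between induced mice was wider in long fragments. Over the 311 members the SD of the 3 induced mice had a median of 7.82 points in long and 4.25 points in short fragments, where the bounds limit it. Induced mouse 3 was the highest of the 3 in 144 members (46.3%), mouse 1 in 94 and mouse 2 in 73. Among the 533 high genes mouse 3 was the highest in 405 (76.0%). Genes on which the mice agreed in short fragments did not always agree in long ones. Zic5 had 28.4%, 28.4% and 32.1% in induced mice and 0.07%, 0.51% and 0% in control mice in long fragments (limma adjusted p = 0.000538). Pou4f1 had 24.9%, 26.6% and 49.04% in induced mice and 1.44%, 1.0% and 0% in control mice (limma adjusted p = 0.0415), and Bai2 had 66.8%, 36.3% and 31.5% in induced mice and 0.16%, 0% and 0.43% in control mice (limma adjusted p = 0.0461). Pou4f1 did not pass with any control mouse left out or without induced mouse 1 or 2 (limma adjusted p up to 0.142), nor Bai2 with any control mouse left out or without induced mouse 2 or 3 (up to 0.150). Of the genes with the widest short-fragment spread, Rasgrf2 overlapped between groups, at 0%, 34.4% and 53.1% in induced mice and 13.2%, 0% and 0% in control mice (limma adjusted p = 0.412), and Gabbr1 was at 1.98%, 6.93% and 3.89% in induced mice and 0%, 0% and 1.79% in control mice (limma adjusted p = 0.194).

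The mouse highest in short fragments was also the highest in long fragments for 118 members (37.9%), namely for 38 of 108 with mouse 1 highest, 25 of 92 with mouse 2 and 55 of 111 with mouse 3. Among all 311 members mouse 1, 2 and 3 were the highest in long fragments in 30.2%, 23.5% and 46.3%. Whether the match exceeds what these shares alone would give was not tested.

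The largest rises in long fragments took promoters of partial short-fragment level above 50% in most mice. Fam148c (237397) had 87.4%, 76.7% and 88.1% in induced mice and 14.7%, 6.42% and 1.22% in control mice, a difference of 76.6 ± 5.13 points (SE, limma adjusted p = 0.00145). Alkbh2 (231642), a repair enzyme that removes alkyl groups from DNA bases, had 73.4%, 52.2% and 78.3% in induced mice and 0%, 0.16% and 0% in control mice (difference 67.9 ± 7.61 points, limma adjusted p = 0.00530). In short fragments the same gene, whose promoter stretch is printed above, had 22.1%, 28.4% and 23.8% in induced mice and 0.35% or less in control mice. So the groups were apart in both fragment classes and the level differed between the classes by 43.2 points.

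Bmp8b (12164), a BMP ligand, was near the lower bound in short fragments, at 13.7%, 10.5% and 16.5% in induced mice and 0.04% or less in control mice. In long fragments it had 67.6%, 63.1% and 78.8% in induced mice and 1.46%, 9.0% and 10.4% in control mice (difference 62.9 ± 5.15 points, limma adjusted p = 0.00223). Egr2 (13654), a zinc finger factor of myelinating cells and the hindbrain, had 59.3%, 78.7% and 69.6% in induced mice and 6.12%, 0.03% and 2.61% in control mice (adjusted p = 0.00235). Ntn3, a netrin, and Sdk1, an adhesion molecule of synapses, differed by 67.4 and 64.0 points (limma adjusted p = 0.00364 and 0.00175). Rbm24, an RNA-binding protein of muscle, and Jph1, a junctophilin of muscle membranes, differed by 61.9 and 62.4 points (limma adjusted p = 0.00811 and 0.0163). Jph1 did not pass without control mouse 1, 2 or 3 (limma adjusted p = 0.0664, 0.0745 and 0.0734).

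Other members were partly methylated in short fragments and almost bare in long ones. Mycn (18109), a transcription factor of the Myc family, had 20.03%, 26.0% and 30.2% in induced mice and 0.16%, 0.01% and 0% in control mice in short fragments, and 0% in all 6 mice in long fragments. Ppl, the cornified-envelope protein periplakin, was likewise at 0% in all 6 long-fragment libraries, with 24.7%, 15.8% and 15.9% in induced mice and 1.67% to 4.26% in control mice in short fragments. Ubl5 (66177), a ubiquitin-like protein, had 40.6%, 46.3% and 40.0% in induced mice and 4.21%, 0.75% and 0% in control mice in short fragments, but 1.37%, 0.03% and 0% in induced mice and 0%, 0.03% and 0% in control mice in long fragments. This was the widest gap in that direction, 41.8 points between the induced means. Fbxl11, a histone demethylase that binds unmethylated CpGs, was at 27.7% ± 1.14 in induced and 3.13% ± 0.991 in control mice in short fragments (SD, n = 3 each). Its induced mean in long fragments was 0.0733%. Foxe3, a forkhead factor of the lens, was at 14.1% in induced and 0.72% in control mice in short fragments, and at 0.0333% in induced mice in long ones. Nav2, a neuron navigator, and Rtkn were at 33.7% and 30.6% in induced mice and at 2.56% and 5.06% in control mice in short fragments. Their induced means in long fragments were 2.72% and 1.43%. AK220484 was at 13.1% ± 2.43 in induced mice in short fragments, not far above its 7.68% ± 0.970 in control mice (SD, n = 3 each). In all 6 long-fragment libraries AK220484 was at 0.18% or less. None of these 8 genes passed in long fragments with all 6 mice. Without induced mouse 1 Nav2 and Rtkn passed as higher (limma adjusted p = 0.0127 and 0.00388), and Nav2 also on the arcsine square root scale and with array weights (0.0176 and 0.0443). With each library's median subtracted Mycn, Ppl, Fbxl11, Foxe3 and AK220484 passed as lower in induced mice (limma adjusted p = 0.00296 for AK220484 and 0.00226 for each of the others), as any gene at or near 0% in every library is shifted by that step.

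A low control level in short fragments did not always extend to long ones. The control mean in long fragments was under 1% in 170 of the 311 members and at or above 10% in 30. At 9 genes, singled out after their values were seen, it was above 30%: Cacnb3, Pbx2, Loxl2, Parp12, Slc4a3, Pkn3, Nab2, Osbp2 and Rpp25. Rpp25 (102614), a subunit of RNase P, had 88.4%, 76.2% and 94.2% in induced mice and 93.1%, 47.1% and 58.4% in control mice, and the groups overlapped (limma adjusted p = 0.477). Osbp2, an oxysterol-binding protein, had 58.7%, 91.7% and 94.2% in induced mice and 46.0%, 29.6% and 56.6% in control mice (adjusted p = 0.140, and 0.0440 without induced mouse 1 and 0.0381 among genes with a mean level of at least 1%). Parp12 had 66.7%, 64.4% and 63.8% in induced mice and 34.9%, 44.8% and 31.3% in control mice and passed (limma adjusted p = 0.0101), though not without control mouse 1 (0.0524) or with array weights (0.223). For Pkn3, a protein kinase of the PKC superfamily, the groups met at 39.02% ± 2.53 in induced and 39.2% ± 2.45 in control mice (SD, n = 3 each). The description of these promoters as unmethylated in control mice therefore holds for their short fragments only.

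By function, 194 of the 534 members fell in at least 1 of 29 gene lists and 340 in none. The largest group was the developmental transcription factors, which pattern tissues in the embryo: 35 of the 231 list genes under 10% in every control mouse were members, 117 were at or above 50% in every induced mouse and 47 stayed low. In long fragments 15 of the 24 members tested were higher and none lower, beside 139 of 200 list genes tested. Ebf3 (13593), an early B-cell factor family member, had 60.6%, 58.7% and 71.5% in induced mice and 7.04%, 4.90% and 4.45% in control mice in long fragments (limma adjusted p = 0.00143). Gata4 (14463), a zinc finger factor of heart and gut endoderm, had 51.1%, 59.4% and 72.5% in induced mice and 3.01%, 4.62% and 5.45% in control mice (limma adjusted p = 0.00442). Hoxc4 (15423), a homeobox factor, had 69.4%, 46.4% and 46.1% in induced mice and 0.18%, 0% and 2.75% in control mice (limma adjusted p = 0.00978). Hoxc4 did not pass without control mouse 1 or 2 (limma adjusted p up to 0.0521). In all 3 genes every induced mouse was above every control mouse by more than 40 points. At the other end Sox12 was at 21.1% ± 2.48 (SD, n = 3) in induced mice in short fragments and at 0.55% or less in all 6 long-fragment libraries. Of 141 Zfp zinc finger genes under 10% in control mice 4 were members (2.84%, against 6.07% of all such genes) and 125 stayed low. The members Zfp382, Zfp30 and Zfp11 were at 36.9% ± 6.73, 22.03% ± 10.7 and 20.8% ± 2.23 in induced mice and at 0.0133%, 5.09% and 0% in control mice in short fragments (means, SD, n = 3 each), and none of them was in all 6 long-fragment libraries.

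Of 60 Wnt pathway genes 13 were members (21.7%), as many as were at or above 50%, and 22 stayed low. Of 12 members tested in long fragments 7 were higher, beside 25 of 46 list genes tested. The Wnt pathway keeps intestinal stem cells dividing, and the members span ligands, receptors and nuclear factors. Of the ligands, Wnt11 (22411) had 45.3%, 42.7% and 35.2% in induced mice and 0.10% or less in control mice in short fragments. In long fragments Wnt11 had 61.0%, 44.7% and 58.6% in induced mice and 10.5%, 3.13% and 3.60% in control mice (limma adjusted p = 0.00477). Wnt9a had 40.4%, 49.9% and 34.4% in induced mice and 0.29% or less in control mice in long fragments (limma adjusted p = 0.00424). Among receptors Fzd10 passed (difference 19.1 ± 3.89 points, limma adjusted p = 0.0298), though not with any control mouse left out or without induced mouse 3 (up to 0.111), whereas Fzd5 was at 4.81%, 0.14% and 7.45% in induced mice and at 0.01% or less in control mice (adjusted p = 0.290, and 0.0274 without induced mouse 2). Of the nuclear factors that bind beta-catenin, Lef1 (16842) had 66.2%, 40.1% and 51.5% in induced mice and 0% in all control mice in long fragments (limma adjusted p = 0.00934). In short fragments Lef1 had 25.8%, 26.2% and 37.4% in induced mice and 0.91%, 0.60% and 0.06% in control mice. Tcf7, its relative, had overlapping groups in long fragments, at 20.4%, 13% and 21.0% in induced mice and 18.4%, 1.18% and 8.72% in control mice.

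Of 34 Notch and Hedgehog genes 5 were members, with 2 of 4 tested higher in long fragments, beside 12 of 27 list genes tested. The Notch ligand Jag2 (16450) had 52.6%, 38.6% and 74.99% in induced mice and 2.03%, 1.21% and 2.74% in control mice (limma adjusted p = 0.0236), and Hes2, a repressor of the Hes family, had 34.4%, 31.0% and 37.7% in induced mice and 0% in all control mice (adjusted p = 0.000968). Numbl, related to the Notch inhibitor Numb, did not pass, at 31.4%, 9.26% and 25% in induced mice and 0.14% or less in control mice (limma adjusted p = 0.0810, with 0.00677 without induced mouse 2 and 0.0133 to 0.0425 in 4 of 8 other fits and filters). Of 76 FGF, BMP and TGF-beta genes 10 were members. In long fragments 35 of 65 list genes tested were higher, and 7 of the 9 members tested. Besides Bmp8b these included Bmp8a, Bmp2 and Bmp7, ligands of the same family, with differences of 43.4, 31.4 and 24.9 points (limma adjusted p = 0.00566, 0.0155 and 0.0158), and Tgfbr3, a co-receptor for TGF-beta, with 49.6%, 50.7% and 44.5% in induced mice and 0% in all control mice (adjusted p = 0.000439). Without single mice some of these calls were lost: Jag2 with any control mouse left out or without induced mouse 1 (limma adjusted p up to 0.0943), Bmp2 with any control mouse left out (up to 0.0702) and Bmp7 without control mouse 1 or 3 (up to 0.0730).

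Further lists held receptors, channels and synaptic genes, most of them known from neurons. Ion channels had 11 members of 90 list genes, against 43 at or above 50%. Of 7 members tested 5 were higher, beside 49 of 68 list genes tested. Hcn4 (330953), a pacemaker channel, had 50.1%, 60.2% and 52.2% in induced mice and 0.02% or less in control mice in long fragments (limma adjusted p = 0.000999). The calcium channel subunit Cacna2d1 passed narrowly, at 25.7%, 38.97% and 62.3% in induced mice and 0.67% or less in control mice (limma adjusted p = 0.04996). Neurotransmitter receptors had 5 members of 41, with 2 of 3 tested higher, beside 28 of 32 list genes tested. The 2 members were the adrenergic receptors Adra2a and Adra1b, with differences of 50.04 and 46.0 points (limma adjusted p = 0.00448 and 0.00801). Synaptic genes had 9 members of 53, of which 3 were tested and 1, Dlgap4, was higher, beside 19 of 38 list genes tested. The presynaptic scaffold Pclo had 9.63%, 37.1% and 26.4% in induced mice and 0% in all control mice in long fragments and did not pass (adjusted p = 0.103, with 0.0131 without induced mouse 1 and 0.0160 to 0.0463 in 4 of 8 other fits and filters). Syt12, a synaptotagmin, had 1.92%, 3.50% and 26.1% in induced mice and 0.07% or less in control mice in long fragments (limma adjusted p = 0.484). Cacna2d1 did not pass with any control mouse left out or without induced mouse 2 (limma adjusted p up to 0.159), nor Dlgap4 with any control mouse left out or without induced mouse 2 or 3 (up to 0.0886).

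Axon guidance genes had 5 members of 54, with 3 of 4 tested higher, beside 23 of 47 list genes tested. The 3 members were Ntn3, the ephrin receptor Epha7 (difference 37.4 points, limma adjusted p = 0.00112) and the semaphorin receptor Plxnd1 (36.3 points, limma adjusted p = 0.0362). Plxnd1 did not pass with any control mouse left out or without induced mouse 1 or 3 (limma adjusted p up to 0.134). G protein receptors had 7 members of 56, with 5 of 6 tested higher, beside 27 of 43 list genes tested. Cxcr4 (12767), the receptor of the chemokine Cxcl12, had 49.1%, 39.02% and 42.2% in induced mice and 0% in all control mice in short fragments. In long fragments Cxcr4 had 36.9%, 51.5% and 38.3% in induced mice and 0.02% or less in control mice (limma adjusted p = 0.00442). Ptger3, a prostaglandin E2 receptor, had 35.7%, 29.7% and 31.4% in induced mice and 0% in all control mice in long fragments (limma adjusted p = 0.000924). Cadherins and protocadherins gave no member among 17 genes, with 8 at or above 50% and 5 staying low.

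Solute carriers had 14 members of 167, with 5 of 10 tested higher, beside 30 of 120 list genes tested. Slc22a17 (59049), a receptor for lipocalin, had the lowest p of the genes named here: 69.9%, 66.4% and 70.5% in induced mice and 8.50%, 9.89% and 11.5% in control mice in long fragments, a difference of 59.0 ± 1.47 points (SE, limma adjusted p = 0.000190). Slco5a1, an organic anion transporter, and Slc16a3, a lactate transporter, differed by 61.3 and 50.1 points (limma adjusted p = 0.00797 and 0.00112). Slc16a3 had a control level of 16.8% to 18.4% in long fragments, above its 0.34% to 5.09% in short ones. Matrix, integrin and metalloprotease genes had 12 members of 83, with 2 of 6 tested higher, beside 35 of 70 list genes tested. Col11a2, a fibrillar collagen, was higher by 40.0 points and Ltbp4, which binds latent TGF-beta, by 20.01 points (limma adjusted p = 0.0214 and 0.0110). Gpc6, a cell-surface glypican, was at 47.7%, 18.5% and 36.1% in induced mice and 0%, 0% and 4.28% in control mice and did not pass (adjusted p = 0.0557, with 0.0135 without induced mouse 2 and 0.0119 to 0.0444 in 5 of 8 other fits and filters). Sdc3, a syndecan, was at 14.3%, 37.1% and 18.97% in induced mice and 2.25%, 0.48% and 3.26% in control mice and did not pass (limma adjusted p = 0.102, with 0.0199 without induced mouse 2 and 0.0287 to 0.0459 in 3 of 8 other fits and filters). Col11a2 did not pass with any control mouse left out or without induced mouse 3 (limma adjusted p up to 0.0905), nor Ltbp4 without control mouse 1 or 3 (up to 0.0564).

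Among intracellular signalling genes, partial gain was more common than high gain in the list of small GTPases and their regulators, with 21 members of 186 (11.3%), 13 genes at or above 50% and 131 that stayed low. In long fragments 6 of 12 members tested were higher, beside 24 of 120 list genes. Rapgef3, an exchange factor opened by cAMP, had 43.1%, 28.9% and 57.1% in induced mice and 8.59%, 7.11% and 1.44% in control mice (limma adjusted p = 0.0354). Rgs10, which switches off G proteins, and Rassf5, an effector of Ras and Rap, differed by 29.7 and 28.0 points (limma adjusted p = 0.00586 and 0.00359). Dock6, an exchange factor, passed with a small rise, at 5.61%, 4.08% and 4.04% in induced mice and 0.07% or less in control mice (limma adjusted p = 0.00475), and did not pass when only genes with a mean level of at least 1% were tested (0.133). Protein kinases and phosphatases had 17 members of 208, 16 at or above 50% and 156 that stayed low. Of 10 members tested 6 were higher, beside 36 of 137 list genes tested. Stk32a, a kinase, and the phosphatase Ppm1e differed by 46.3 and 46.0 points (limma adjusted p = 0.00963 and 0.00112). Ppp1r14c, an inhibitor of protein phosphatase 1, differed by 50.1 points (limma adjusted p = 0.0407). Rapgef3 did not pass with any control mouse left out or without induced mouse 1 (limma adjusted p up to 0.131), Ppp1r14c with any control mouse left out or without induced mouse 1 or 3 (up to 0.139), and Stk32a with any control mouse left out (up to 0.0508).

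**Figure D5:**
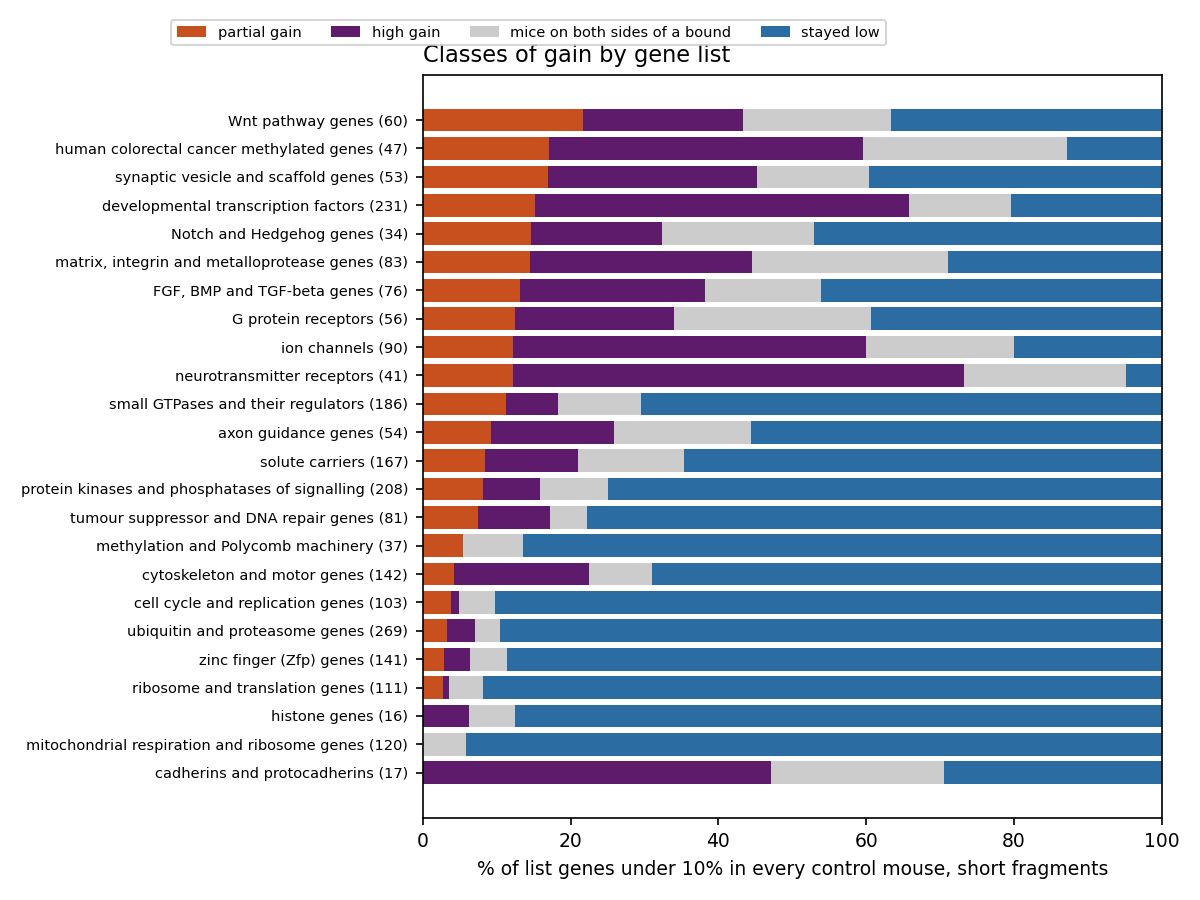
Share of each gene list (percent of its genes under 10% in every control mouse in short fragments, number in brackets) by class of short-fragment gain: partial gain, at or above 50% in every induced mouse, induced mice on both sides of a bound, and stayed low. Lists are ordered by the share with partial gain, from 21.7% for Wnt pathway genes to 0% for cadherins, mitochondrial genes and histones. Lists with fewer such genes than the 16 of the histone list are left out, among them germline (2 members of 10) and imprinted genes (1 of 12).

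Lists of genes for basic cell functions had smaller shares of members than the 6.1% among all genes low in every control mouse. These shares rest on few members, and whether they differ from that of all genes was not tested. The lists also hold genes of narrower use, such as Trim9 in the ubiquitin list and Ccna1 in the cell cycle list. Ubiquitin and proteasome genes had 9 of 269 (3.35%), and ribosome and translation genes 3 of 111 (2.70%). Cell cycle and replication genes had 4 of 103 (3.88%), and mitochondrial respiration and ribosome genes 0 of 120. Among the ubiquitin genes Trim9, a ligase of neurons, had 46.8%, 44.4% and 61.9% in induced mice and 4.95%, 0% and 1.44% in control mice in long fragments (limma adjusted p = 0.00508). Ribosomal protein gene Rpl38 was at 29.2%, 22.6% and 25.4% in induced mice and 2.24%, 0.72% and 3.82% in control mice in short fragments, and at 9.09%, 0% and 0.42% in induced mice and 0.11% or less in control mice in long ones (adjusted p = 0.584). Of 37 genes of the methylation and Polycomb machinery 2 were members (5.41%), near the share of all genes. They were the histone deacetylase Hdac3 at 42.4% ± 6.38 and the Polycomb subunit Cbx6 at 17.2% ± 6.94 in induced mice (SD, n = 3 each), against 0.59% or less and 0.23% or less in control mice. Each shares its short-fragment values with another gene, Rell2 for Hdac3 and Npcd for Cbx6, and neither was in all 6 long-fragment libraries. Rpl35 was at 12.1% ± 0.882 in induced and 3.90% ± 2.37 in control mice in short fragments (SD, n = 3 each) and was not in all 6 long-fragment libraries. Rnf39, a RING finger protein of the ubiquitin list, had 39.4%, 35.5% and 59.05% in induced mice and 0.03% or less in control mice in long fragments (limma adjusted p = 0.0131), and did not pass with any control mouse left out (up to 0.0628). Cdc14b, a phosphatase of the cell cycle list, had 36.1%, 15.6% and 14.3% in induced mice and 0.07% or less in control mice in long fragments and did not pass (limma adjusted p = 0.0973, with 0.000932 without induced mouse 1 and 0.0113 to 0.0444 in 4 of 8 other fits and filters).

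Cytoskeleton and motor genes had 6 members of 142, with 3 of 3 tested higher in long fragments, beside 24 of 109 list genes tested. Histone genes had 0 of 16. Tpm1, a tropomyosin that lies along actin filaments, had 27.2%, 26.6% and 30.6% in induced mice and 0.03%, 0.55% and 0.08% in control mice in long fragments (limma adjusted p = 0.000624). Tuba4a, an alpha-tubulin, had 22.2%, 31.8% and 41.7% in induced mice and 2.79%, 0.82% and 5.07% in control mice (limma adjusted p = 0.0236), and did not pass with any control mouse left out or without induced mouse 2 (up to 0.0973).

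Tumour suppressor and DNA repair genes had 6 members of 81, with 4 of 5 tested higher in long fragments, beside 13 of 49 list genes tested. Cdkn2a (12578), the locus of p16 and p19Arf that arrests the cell cycle, had 24.2%, 37.7% and 41.8% in induced mice and 4.64%, 5.50% and 5.66% in control mice in short fragments. In long fragments Cdkn2a had 36.0%, 54.3% and 28.7% in induced mice and 0%, 0.21% and 1.35% in control mice (limma adjusted p = 0.0223), and it did not pass with any control mouse left out or without induced mouse 1 (up to 0.0904). Socs3, an inhibitor of cytokine signalling, had 17.3%, 22.9% and 26.7% in induced mice and 0.17% or less in control mice in long fragments (limma adjusted p = 0.00588). Parp3, which shares its short-fragment values with Rrp9, was at 20.1% ± 5.49 (SD, n = 3) in induced mice in short fragments and at 0.64% or less in all long-fragment libraries. Ccna1 (12427), a cyclin of meiosis, had 61.0%, 57.5% and 65.6% in induced mice and 3.74%, 7.09% and 5.46% in control mice in long fragments (limma adjusted p = 0.000623).

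Of 47 genes from the list of promoters methylated in human colorectal tumours 8 were members, 20 were at or above 50% in every induced mouse and 6 stayed low. In long fragments 32 of 43 list genes tested were higher, and 4 of the 6 members tested. Besides Gata4 and Cdkn2a these were Hoxd13, a homeobox gene of the posterior body, and Vim, which encodes the intermediate filament vimentin. Hoxd13 had 30.6%, 51.8% and 37.1% in induced mice and 0.07%, 1.05% and 1.16% in control mice in long fragments (limma adjusted p = 0.0127). Vim (22352) had 39.7%, 38.0% and 19.9% in induced mice and 0.47%, 0% and 1.23% in control mice in short fragments. In long fragments Vim had 25.8%, 37.2% and 47.8% in induced mice and 2.22%, 0.03% and 1.30% in control mice (limma adjusted p = 0.0174). The order of the induced mice so differed between fragment classes, with mouse 3 lowest in short and highest in long fragments. Rprm, a p53 target that halts the cycle, had 60.9%, 21.6% and 40.7% in induced mice and 1.04% or less in control mice and did not pass (adjusted p = 0.0657, with 0.0235 without induced mouse 2 and 0.0137 to 0.0458 in 5 of 8 other fits and filters). With any control mouse left out Hoxd13 and Vim did not pass, nor did Vim without induced mouse 2 (limma adjusted p up to 0.0619 for Hoxd13 and 0.0769 for Vim).

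Of 12 imprinted genes under 10% in control mice 1 was a member, Slc22a3, an organic cation transporter, at 31.8% ± 7.76 in induced and 7.79% ± 0.563 in control mice in short fragments (SD, n = 3 each). Of 10 germline genes 2 were members, Syce2 and Stag3. Syce2, a protein of the synaptonemal complex, had 22.3%, 35.6% and 38.4% in induced mice and 5.91%, 7.19% and 9.76% in control mice in long fragments (limma adjusted p = 0.0274), and did not pass with any control mouse left out or without induced mouse 2 or 3 (up to 0.108). Stag3, a meiotic cohesin subunit, shares its short-fragment values with Gpc2 and was not in all 6 long-fragment libraries.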

How the data were processed

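Colon epithelial DNA was cut with MspI, and fragments of 40 to 120 and of 120 to 220 nt were bisulfite-sequenced on a Genome Analyzer II, per the labels. Each deposited table gives a mean CpG methylation fraction for genes and for RefSeq promoters, per its file header, and fractions were multiplied to percent. How reads were aligned, on which build, over which promoter window and with which coverage filter is not given in the sources used. The authors' tables hold no read counts, so depth is unknown and no counting interval can be given. Bisulfite sequencing also reads unconverted cytosine and hydroxymethylcytosine as methylation.

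Members were counted by the rule. Long-fragment percent levels of the 6127 genes in all 6 libraries were fitted with limma 3.58.1 in R 4.3.3 (lmFit, eBayes), induced against control, after a test on simulated data. The simulation drew normal noise with the same SD in both groups and no lower limit. The members' median SD was 7.82 points in induced and 0.774 points in control mice. So the simulation does not show how the fit behaves with such unequal spread. Benjamini-Hochberg adjustment ran over all 6127 genes, with a threshold of 0.05, and adjusted p-values come from this fit unless another is named. Python 3.11.15 (pandas 2.3.3, numpy 2.4.6, scipy 1.17.1) made the summaries and matplotlib 3.10.9 the figures. The members, gene lists and rule for named genes were chosen with earlier results of these data known. Genes were named by spread between induced mice, nearness to a bound, long-fragment difference, gap between fragment classes, gap between promoters, and list membership (up to 3 per list, largest long-fragment difference first). One gene that this rule names is not reported here. Further list members (such as Sox12, Fzd10, Fzd5, Tcf7, Bmp2, Bmp7, Dock6, Ltbp4 and Socs3) were added after their values were seen. RefSeq (GRCm38.p6) gave gene order and promoter sequences. The sequences were found for 401 members (75.1%), under the 80% needed, so a comparison of CpG content between classes is void and was not made. Alternatives were other bounds, promoters, filters and fits, and leaving out each mouse. The filter on a mean level of at least 1% used induced and control mice together. A gene that passed only with it gains no independent support.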

Additional observations from a re-analysis of the deposited data

How the results depend on the processing

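With 3 mice a group and no read counts, small differences could not be resolved, and the choice of mouse bounds sets who is a member. Of 534 members by every mouse, bounds on group means gave 916, including all 534, and the long-fragment libraries gave 290, sharing 111. Leaving out 1 mouse gave 553 to 660, and the other bounds and promoter choices 462 to 701. Of 170 members higher in long fragments, members by group means gave 263 of 505, and leaving out 1 mouse gave 90 to 184. The other fits and filters gave 172 to 229. The median difference of 24.7 points was 23.7 to 26.4 points without 1 mouse and 23.9 to 25.1 points otherwise. With mouse number as a replicate block 71 members were higher, 69 of them among the 170, and 34 of the 58 named genes that passed did not, among them Alkbh2, Jph1 and Rbm24 (limma adjusted p = 0.0525, 0.0756 and 0.0604). The labels do not tie the numbers across groups. Deviations of same-numbered mice from their group means had correlations of 0.00102, 0.0366 and 0.0247 across genes. Values this small do not settle whether the mice were paired. Each mouse but control mouse 1 correlated best with its own number. Deviations are centred within groups of 3, so these correlations constrain each other, and for induced mouse 1 they ran only from -0.0007 to 0.00102. The tally of best matches therefore does not tell whether the mice were paired. Of these 58 genes 33 passed whichever mouse was left out. Bmp7, Parp12, Plxnd1 and Loxl2 did not pass with array weights (limma adjusted p = 0.0524 to 0.223), Cacna2d1 and Bai2 with genes in at least 2 libraries a group (0.0554 and 0.0513), nor Dock6 with a mean level of at least 1% (0.133). Of 28 named genes that did not pass, Nab2, Numbl, Sdc3, Cdc14b, Gpc6, Pclo, Rprm and Osbp2 passed as higher with that level filter (0.0119 to 0.0479). Mycn, Ppl, Fbxl11, Foxe3 and AK220484 passed as lower in induced mice with library medians subtracted (limma adjusted p = 0.00226, and 0.00296 for AK220484), and Sox12, Parp3 and Ubl5 turned lower with the same step (limma adjusted p = 0.00649, 0.0116 and 0.377). Pkn3, whose groups met, turned higher with array weights, without induced mouse 1 and without control mouse 1 (limma adjusted p = 1.0, 0.789 and 0.794, and 0.688 to 1.0 over all mice left out in turn). AK220484, also near a difference of 0, turned higher on the arcsine square root scale and without control mouse 2 (limma adjusted p = 0.703 and 0.679, and 0.679 to 1.0 over all mice left out).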
